A study of Mus musculus with 3 samples.

Results

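The levels of 10 genes of protein folding in the endoplasmic reticulum (ER) and of the unfolded protein response were followed in splenic T cells of mice given cyclosporine (CSA) after allogeneic bone marrow transplantation. They are the ER chaperones Hspa5 and Hsp90b1, the lectin chaperones Calr and Canx, the protein disulfide isomerases Pdia3, Pdia4 and Pdia6, the transcription factors Xbp1 and Ddit3, and the secreted ER protein Manf. The genes were chosen by name for this pathway, and all 10 were among the 18029 genes of the deposited table. Irradiated B6D2F1 recipients received bone marrow and polyclonal T cells from C57BL/6 donors together with a small number of TEa cells, which carry a transgenic T cell receptor that recognises a host peptide. Treatment was daily from day 0 to day 6 with saline or with 5 or 50 mg/kg of CSA, and the spleens were taken on day 7. Each treatment had 6 mice in 3 hashtagged pools of 2 mice, and the sorted CD4+ and CD8+ T cells of a treatment were run in 1 droplet capture with 5′ single-cell RNA sequencing. Capture and treatment therefore cannot be told apart, and each p-value measures the spread between pools of the same captures. Age and sex of the mice are not given in the sources used here.

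The ER folds secreted and membrane proteins, and an activated T cell makes many of both. Hspa5 encodes BiP, the main ER chaperone of the Hsp70 family. BiP also binds the stress sensors IRE1 (encoded by Ern1), PERK (Eif2ak3) and ATF6 (Atf6) and holds them inactive until unfolded proteins draw it away. IRE1 splices Xbp1 mRNA into the form that encodes an active transcription factor, PERK favours translation of ATF4 and so raises Ddit3 (CHOP), and ATF6 is cut to release a factor that raises chaperone genes. The RNA counts cannot separate spliced from unspliced Xbp1. They also do not measure the activity of a sensor.

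A well-known element of this response is the ER stress response element (ERSE), in which the letters CCAAT and CCACG lie 9 bases apart. It was searched on both strands in the 250 bases before the RefSeq start of each gene (GRCm38.p6), and 9 of the 10 genes matched the promoter table. The element was in 5 of these 9 promoters and in 37 of all 32851 promoters searched (0.113%). The windows are shown because they are the shared sequence feature of the chaperone genes described below. They are printed on the strand of the gene, with CCAAT and CCACG, or their reverse complements, in capitals, and the position of the first capital is counted back from the RefSeq start.
Hspa5, chr2:34772020-34772048 (+), first capital at -65: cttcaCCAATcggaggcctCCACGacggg
Hsp90b1, chr10:86705633-86705661 (-), first capital at -212: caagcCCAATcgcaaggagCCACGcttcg
Hsp90b1, chr10:86705528-86705556 (-), first capital at -107, reverse orientation: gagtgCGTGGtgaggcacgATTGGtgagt
Calr, chr8:84847070-84847098 (-), first capital at -162, reverse orientation: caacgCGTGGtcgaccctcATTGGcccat
Canx, chr11:50325795-50325823 (-), first capital at -145: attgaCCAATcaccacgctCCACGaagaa
Pdia6, chr12:17266486-17266514 (+), first capital at -98: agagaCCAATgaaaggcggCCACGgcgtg
These letters were not found in the windows of Pdia3, Pdia4, Xbp1 and Ddit3. The GENCODE M21 record of Hspa5 (34771970 to 34777547) opens before the printed window, so the window lies upstream of the RefSeq start and inside the GENCODE gene.

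The tests used 10091 CD4+ and 10833 CD8+ T cells, and 280 TEa cells were left out. A pool held 875 to 1479 CD4+ cells with 3994968 to 7592334 unique molecular identifiers (UMIs), and 692 to 1615 CD8+ cells with 4392100 to 11454636 UMIs. Median UMIs per cell were 3097, 4396 and 5979.5 in CD4+ cells and 4108, 6121.5 and 7183 in CD8+ cells at saline, 5 mg/kg and 50 mg/kg, so depth per cell moved with dose. Captures shared 58 to 85 cell barcodes. The summed T cell markers were high in every pool, with Cd8a at 0 in the CD4+ cells and Cd4 at 0 in the CD8+ cells. Cd8b1, a marker of the same list, was present in the CD4+ cells and fell with dose. Its mean there, in UMIs per 1000000 UMIs of the pool, was 148, 92.4 and 23.2 at saline, 5 mg/kg and 50 mg/kg. The zeros cannot show purity if cells were assigned to a lineage by Cd4 and Cd8a, which was not tested. Summed markers of B and plasma cells were at 191 to 213 CPM (UMIs per 1000000 UMIs of the pool) in the CD8+ saline pools and at 577 to 768 CPM at 50 mg/kg, and in the CD4+ cells at 199 to 213 and 283 to 338 CPM. The largest difference was that of Jchain in CD8+ cells, with a mean of 2.51 CPM at saline and 251 CPM at 50 mg/kg. Plasma cells are rich in ER chaperones and in Xbp1. The summed level of the 10 genes was at 4793 to 5455 CPM in the CD8+ saline pools and at 2240 to 2924 CPM at 50 mg/kg, a sum led by the abundant chaperones. In the CPM of this paragraph Xbp1 was not higher at 50 mg/kg in the same CD8+ pools, and the pools of Manf overlapped with saline. Both were higher there only after the TMM scaling of the next paragraph, while Jchain was higher without it. The part of these markers in the results was not tested. Erythroid markers were at 7.91 to 22.8 CPM at saline and 26.8 to 52.6 CPM at 50 mg/kg in CD8+ cells, and myeloid markers stayed between 253 and 351 CPM in both lineages.

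All levels in the next paragraphs are CPM after TMM scaling, in which library sizes are adjusted so that the bulk of genes is centred on no change. Summed over a pool, a changed mix of T cell clusters and a changed level per cell cannot be told apart. Hspa5 fell with each dose in both lineages. In CD4+ T cells its 3 pools held 828, 890 and 753 CPM at saline, 610, 639 and 667 at 5 mg/kg and 493, 415 and 378 at 50 mg/kg (mean 824 ± 68.6, 639 ± 28.2 and 429 ± 58.6, SD, n = 3). In CD8+ T cells it was at 845, 933 and 796 CPM at saline, 513, 513 and 567 at 5 mg/kg and 501, 420 and 352 at 50 mg/kg (858 ± 69.2, 531 ± 31.0 and 424 ± 74.3). No treated pool reached the lowest saline pool in either lineage. On the log2 scale Hspa5 changed by -0.37 (SE 0.07, adjusted p = 0.00013) at 5 mg/kg and by -0.94 (SE 0.07, adjusted p = 9.5e-11) at 50 mg/kg in CD4+ cells, and by -0.69 (SE 0.09, adjusted p = 2.2e-06) and -1.02 (SE 0.09, adjusted p = 6.9e-09) in CD8+ cells. These p-values come from the quasi-likelihood test of edgeR, adjusted by Benjamini-Hochberg over all genes tested. Hspa5 stood at 0.520 and 0.493 of its saline level at the higher dose in CD4+ and CD8+ cells.

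The members past the threshold of 0.05 have to be read against the background of these comparisons, since most genes differed between captures. Of all genes tested in CD4+ T cells, 51.7% passed at 5 mg/kg and 70.5% at 50 mg/kg. In CD8+ T cells 60.2% and 74.0% passed. Of the 10 genes in CD4+ cells, 6 passed at the lower dose (3 higher, 3 lower) and 9 at the higher dose (3 higher, 6 lower). In CD8+ cells all 10 passed at each dose (3 higher, 7 lower). The median log2 change of the 10 genes at 50 mg/kg was -0.14 in CD4+ and -0.39 in CD8+ cells, beside -0.01 and 0.00 for all genes tested. In cells of 4000 to 8000 UMIs, a range of depth that all groups share, these medians were -0.39 and -0.63, and in CD8+ cells outside the clusters counted here as cycling (CD4+ C3, C5 and C6 and CD8+ C2, C3 and C4 of the deposited annotation) the median was -0.16. At matched depth 2 of the 10 genes were higher and 7 lower in CD4+ cells at 5 mg/kg, where 48.4% of all genes passed and the median of the 10 was -0.36 (-0.03 over all cells), and 3 were higher and 6 lower at 50 mg/kg, where 61.9% passed. Both doses were set against the same saline pools, so the doses are not independent comparisons with saline.

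Without TMM, with counts divided by library size alone, the median of all genes moved by -0.37 and -0.45 at 5 and 50 mg/kg in CD4+ cells and by -0.43 and -0.53 in CD8+ cells. At 50 mg/kg the genes passing the threshold then split into 1599 higher and 6239 lower in CD4+ cells (3669 and 3785 with TMM) and 1690 higher and 6794 lower in CD8+ cells (4021 and 4003 with TMM). At 5 mg/kg the splits were 926 higher and 5718 lower in CD4+ cells (2758 and 2709 with TMM) and 1180 higher and 6270 lower in CD8+ cells (3241 and 3282 with TMM). Of the 10 genes, 0 were then higher and 7 lower in CD4+ cells at 5 mg/kg, 1 higher and 8 lower in CD8+ cells at 5 mg/kg, and 1 higher and 7 lower in each lineage at 50 mg/kg, where their median was -0.58 in CD4+ and -0.92 in CD8+ cells. Falls of Hspa5 and Canx were larger on that scale. Changes are given here relative to the bulk of genes, and a gene whose direction turns with the scaling is named as such beside its value.

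**Figure D1:**
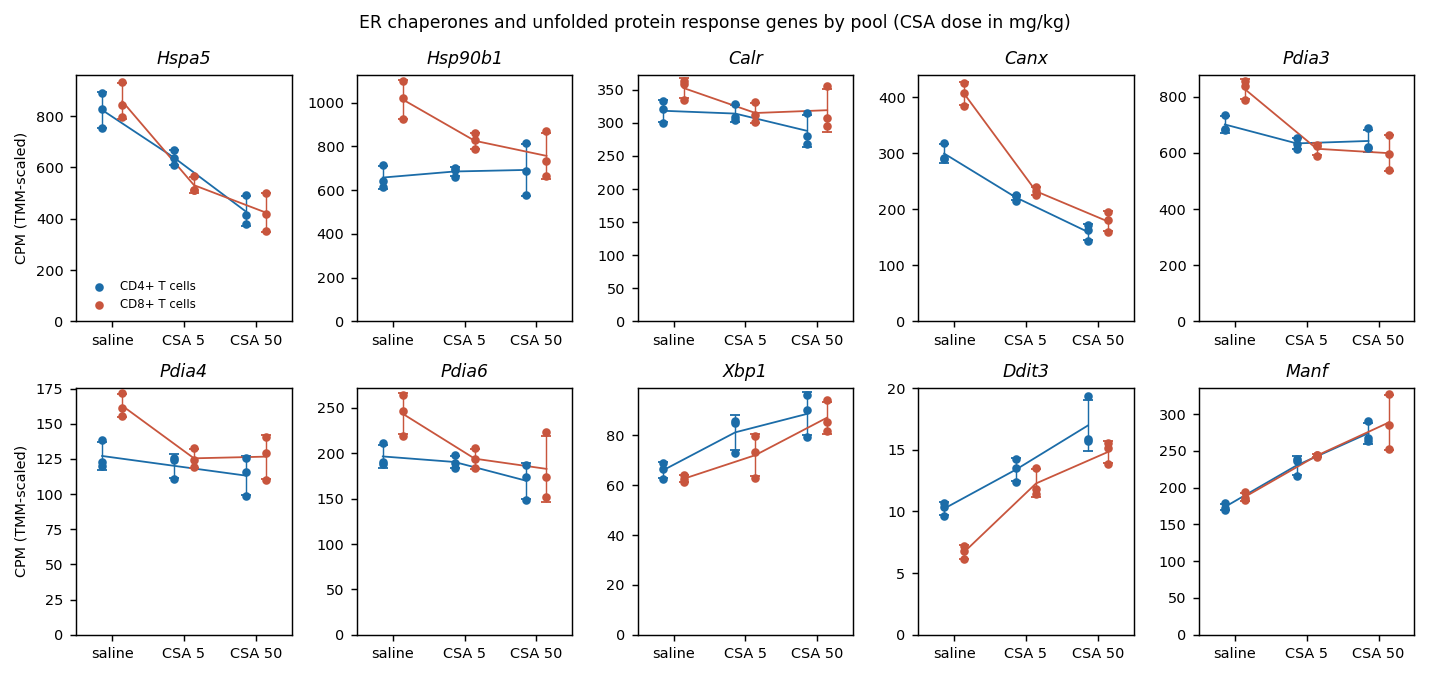
Level of each of the 10 genes in the 9 pools (points; CPM after TMM scaling, axis from 0) of CD4+ (blue) and CD8+ (red) T cells at saline, CSA 5 mg/kg and CSA 50 mg/kg; lines join group means and bars show the SD of 3 pools. Hspa5 and Canx drop with each dose in both lineages, Hsp90b1 drops in CD8+ cells, and Xbp1, Ddit3 and Manf rise, of which Xbp1 in both lineages and Manf at 5 mg/kg in CD8+ cells turn direction without TMM.

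Hsp90b1 encodes GRP94, the ER member of the Hsp90 family, which folds integrins and Toll-like receptors among other proteins. It differed from Hspa5 in CD4+ T cells, where its pools held 642, 714 and 616 CPM at saline, 690, 662 and 703 at 5 mg/kg and 814, 686 and 577 at 50 mg/kg. The 3 groups overlapped, and the changes of 0.06 (adjusted p = 0.55) and 0.07 (adjusted p = 0.42) did not pass the threshold. The direction rested on the scaling, on the depth of the cells and on single pools. In cells of 4000 to 8000 UMIs Hsp90b1 changed by -0.49 and -0.44 at 5 and 50 mg/kg, both past the threshold. Without TMM Hsp90b1 changed by -0.30 and -0.37, both past the threshold, without pool 1 of 50 mg/kg the change at that dose was -0.06, and without pool 3 of 50 mg/kg it was 0.19 (adjusted p = 0.0072). In CD8+ T cells Hsp90b1 was at 1019, 1099 and 923 CPM at saline, 788, 828 and 861 at 5 mg/kg and 872, 732 and 666 at 50 mg/kg. No treated CD8+ pool overlapped with saline, and the gene was lower by -0.29 (SE 0.08, adjusted p = 0.0025) and -0.42 (SE 0.07, adjusted p = 5.7e-05). The fall at 5 mg/kg was -0.19 and did not pass outside the cycling clusters.

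Of the 3 pools at 50 mg/kg, pool 1 had the highest and pool 3 the lowest level of 8 of the 10 genes, all but Xbp1 and Ddit3, in both lineages, whose cells come from the same mice. For Hsp90b1 this spread (SD 119 CPM in CD4+ cells) was wider than in the saline pools (SD 50.7 CPM).

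The lectin chaperones calnexin (Canx) and calreticulin (Calr) hold newly made glycoproteins while their sugars are trimmed, and they behaved unlike each other. Canx fell at both doses in both lineages. In CD4+ T cells its pools were at 289, 318 and 291 CPM at saline, 224, 215 and 225 at 5 mg/kg and 172, 164 and 143 at 50 mg/kg. In CD8+ T cells they were at 407, 426 and 385 CPM, then 225, 239 and 232, then 195, 181 and 159. The groups were apart at every step, and the log2 changes were -0.44 (SE 0.06, adjusted p = 1.3e-06) and -0.91 (SE 0.06, adjusted p = 6e-12) in CD4+ and -0.80 (SE 0.06, adjusted p = 1.9e-09) and -1.19 (SE 0.06, adjusted p = 3.1e-12) in CD8+ cells. At 50 mg/kg Canx in CD8+ cells stood at 0.438 of its saline level.

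Calr was at 300 to 333 CPM in the CD4+ saline pools, 304 to 329 at 5 mg/kg and 268 to 315 at 50 mg/kg, and the groups overlapped. Its change in CD4+ cells was -0.02 (adjusted p = 0.82) at 5 mg/kg, turning to 0.01 without pool 1 of 5 mg/kg and to 0.02 without saline pool 2. At 50 mg/kg it was lower by -0.15 (adjusted p = 0.021). That call was lost without saline pool 1 (adjusted p = 0.054), saline pool 2 (0.11) or 50 mg/kg pools 2 (0.081) or 3 (0.13). In CD8+ cells Calr was at 335 to 363 CPM at saline, 302 to 331 at 5 mg/kg and 295 to 355 at 50 mg/kg, with changes of -0.16 (adjusted p = 0.028) and -0.15 (adjusted p = 0.032). These calls too were lost without saline pool 1 (adjusted p = 0.082 at 5 mg/kg and 0.094 at 50 mg/kg), without saline pool 2 (0.098 and 0.11), and without 5 mg/kg pools 1 (0.11) or 2 (0.081) or 50 mg/kg pools 2 (0.12) or 3 (0.14). Outside the cycling clusters the change of Calr was 0.05 in CD4+ cells at 5 mg/kg and 0.02 in CD8+ cells at 50 mg/kg. In cells of 4000 to 8000 UMIs Calr was lower past the threshold at both doses in both lineages.

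The disulfide isomerases form and rearrange disulfide bonds, and Pdia3 (ERp57) works bound to calnexin and calreticulin and also in the loading of MHC class I. Over all CD8+ T cells the 3 isomerases were each lower at both doses. Pdia3 was at 837, 856 and 787 CPM at saline, 590, 625 and 630 at 5 mg/kg and 664, 595 and 538 at 50 mg/kg, with log2 changes of -0.43 (adjusted p = 5.4e-06) and -0.47 (adjusted p = 8.7e-07). Pdia4 fell from 156 to 172 CPM to 119 to 133 and 110 to 141 CPM, a change of -0.37 at each dose (adjusted p = 0.00027 and 0.00013). Pdia6 was at 219 to 264 CPM at saline, 183 to 206 at 5 mg/kg and 151 to 223 at 50 mg/kg, where its highest pool overlapped with saline. Its changes were -0.32 (adjusted p = 0.0097, and 0.058 without saline pool 2) and -0.42 (adjusted p = 0.00082). Pdia4 changed outside the cycling clusters by -0.16 and -0.09 at 5 and 50 mg/kg, neither past the threshold. Of all 10 genes in CD8+ cells at 5 mg/kg, 2 were higher and 3 lower there, beside 3 and 7 over all cells. The share of all genes passing in that subset is not given here.

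In CD4+ T cells the changes of these enzymes depended on the cells compared. Over all cells Pdia3 was at 683 to 735 CPM at saline, 614 to 654 at 5 mg/kg and 619 to 687 at 50 mg/kg, with changes of -0.15 (adjusted p = 0.0078) and -0.13 (adjusted p = 0.012). Without saline pool 2 these had adjusted p = 0.061 and 0.090, and the change at 50 mg/kg had 0.073 and 0.058 without 50 mg/kg pools 2 and 3. Pdia4 changed by -0.08 (adjusted p = 0.40) and -0.17 (adjusted p = 0.043), and the second was lost without saline pool 2 (0.27), 5 mg/kg pools 2 (0.055) or 3 (0.054), or 50 mg/kg pools 2 (0.053) or 3 (0.31). Pdia6 changed by -0.05 (adjusted p = 0.59, turning to 0.01 without saline pool 2 and to 0.04 outside the cycling clusters) and by -0.22 (adjusted p = 0.0057, with 0.054 without saline pool 2 and 0.057 without 50 mg/kg pool 3). In cells of 4000 to 8000 UMIs the changes at 5 and 50 mg/kg were -0.41 and -0.34 for Pdia3, -0.31 and -0.25 for Pdia4 and -0.52 and -0.72 for Pdia6, all past the threshold except Pdia4 at 50 mg/kg (adjusted p = 0.062).

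Xbp1, Ddit3 and Manf were higher relative to the bulk of genes. Manf, a small protein that is held in the ER through BiP and released under stress, was at 172, 179 and 170 CPM in the CD4+ saline pools, 216, 239 and 237 at 5 mg/kg and 291, 268 and 264 at 50 mg/kg. In CD8+ T cells it was at 186, 194 and 183 CPM, then 242, 244 and 245, then 328, 285 and 252. No pools overlapped between doses in either lineage. The log2 changes were 0.41 (SE 0.05, adjusted p = 9.6e-07) and 0.66 (SE 0.05, adjusted p = 1.5e-10) in CD4+ cells and 0.38 (SE 0.07, adjusted p = 0.00012) and 0.62 (SE 0.07, adjusted p = 1.5e-07) in CD8+ cells. Without TMM Manf changed by 0.05 and 0.22 in CD4+ cells, of which the second passed the threshold, and by -0.05 and 0.09 in CD8+ cells, neither of which passed.

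Ddit3 encodes CHOP, a factor induced through PERK and ATF4 and linked to cell death under lasting ER stress. It was the least abundant of the 10 genes, with 48 to 116 UMIs per pool in CD4+ and 55 to 152 in CD8+ cells. Its CD4+ pools held 10.7, 10.4 and 9.62 CPM at saline, 12.4, 13.6 and 14.2 at 5 mg/kg and 15.8, 19.4 and 15.7 at 50 mg/kg. The CD8+ pools held 6.83, 6.13 and 7.19 CPM at saline, 13.6, 11.4 and 11.9 at 5 mg/kg and 15.1, 13.8 and 15.5 at 50 mg/kg. Every treated pool lay above every saline pool. Ddit3 changed by 0.40 (SE 0.15, adjusted p = 0.025) and 0.73 (SE 0.13, adjusted p = 5.3e-05) in CD4+ cells and by 0.85 (SE 0.13, adjusted p = 2.6e-05) and 1.15 (SE 0.12, adjusted p = 1.2e-07) in CD8+ cells. The call at 5 mg/kg in CD4+ cells was lost without 5 mg/kg pools 2 (adjusted p = 0.058) or 3 (0.11) or saline pool 3 (0.083), and by DESeq2. Without TMM Ddit3 changed by 0.04 and 0.29 in CD4+ cells, neither past the threshold, and by 0.43 and 0.62 in CD8+ cells, both past it. GENCODE M21 holds 2 overlapping gene records with the symbol Ddit3 on chromosome 10 (127290774 to 127296288 and 127290829 to 127293753), so reads shared by both may have been counted for neither and its level is uncertain.

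Xbp1 was at 66.6, 69.1 and 62.6 CPM in the CD4+ saline pools, 73.1, 84.97 and 85.7 at 5 mg/kg and 90.4, 96.3 and 79.3 at 50 mg/kg, and all treated pools were above saline. In CD8+ cells it was at 62.7, 63.9 and 61.1 CPM at saline, 63.1, 79.6 and 73.5 at 5 mg/kg and 94.3, 85.4 and 81.8 at 50 mg/kg, with an overlap of saline and the lower dose. The changes were 0.31 (SE 0.08, adjusted p = 0.0028) and 0.42 (SE 0.08, adjusted p = 4.3e-05) in CD4+ cells and 0.22 (SE 0.07, adjusted p = 0.018) and 0.47 (SE 0.07, adjusted p = 6.9e-06) in CD8+ cells with TMM, and without TMM they turned to -0.05, -0.02, -0.21 (past the threshold) and -0.06. The call at 5 mg/kg in CD8+ cells was lost without 5 mg/kg pools 2 (adjusted p = 0.13) or 3 (0.075) or saline pools 1 (0.054) or 3 (0.073).

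**Figure D2:**
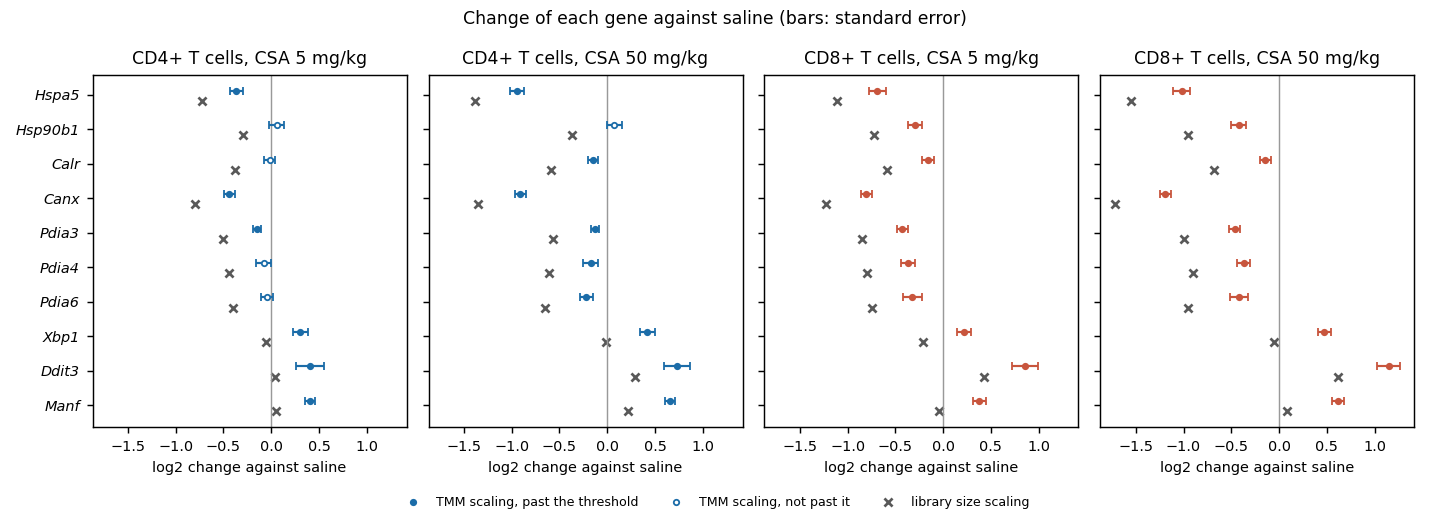
Log2 change of each gene against saline at 5 and 50 mg/kg in CD4+ and CD8+ T cells with TMM scaling (circles, filled past the threshold of 0.05; bars are standard errors) and with library size scaling (crosses). Hspa5 and Canx are left of 0 in every panel on both scales, while Xbp1 in every panel, Manf in CD8+ cells at 5 mg/kg and Hsp90b1 in CD4+ cells change side.

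Between the doses, 41.2% of genes passed the threshold in CD4+ and 41.0% in CD8+ cells, and 4 of the 10 genes passed in each. In CD4+ T cells at 50 against 5 mg/kg Hspa5 was lower by -0.58 (adjusted p = 1.1e-06) and Canx by -0.47 (adjusted p = 1.5e-06), and Manf was higher by 0.25 (adjusted p = 0.00035). Pdia6 was lower by -0.17 (adjusted p = 0.046), a call lost on leaving out any pool other than saline pool 2 or 50 mg/kg pool 1 (adjusted p up to 0.30, without 50 mg/kg pool 3). In CD8+ T cells Hspa5 was lower by -0.33 (adjusted p = 0.0064), a difference that did not pass by DESeq2, and Canx by -0.39 (adjusted p = 7.4e-05). Xbp1 was higher by 0.26 (adjusted p = 0.0081, and 0.053 without 50 mg/kg pool 1) and Manf by 0.24 (adjusted p = 0.0081). With cycling clusters left out, 2 of the 10 genes and 29.6% of all genes passed in CD8+ cells, and without TMM neither Xbp1 (0.15) nor Manf (0.13) did.

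CD4+ and CD8+ cells of a pool came from the same mice and were compared with the pool as a block. In the saline pools 40.1% of genes differed between the lineages, and 9 of the 10 genes did. Hsp90b1 was higher in CD8+ cells by 0.71 (SE 0.03, adjusted p = 7.2e-15), Canx by 0.52 (adjusted p = 1.1e-11), Pdia4 by 0.44, Pdia6 by 0.39, Pdia3 by 0.32, Calr by 0.23, Manf by 0.20 and Hspa5 by 0.14 (adjusted p = 0.00046). Ddit3 was lower by -0.52 (SE 0.16, adjusted p = 0.0093), a call lost without saline pool 2 (adjusted p = 0.094), and Xbp1 differed by 0.01 (adjusted p = 0.94).

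The change with CSA also differed between the lineages. At 5 mg/kg 3.57% of all genes and 7 of the 10 genes had a different change in CD8+ than in CD4+ cells, and each of the 7 had the more negative change in CD8+ cells. The change in CD8+ minus that in CD4+ cells was -0.40 for Canx (adjusted p = 0.00015), -0.39 for Hsp90b1 (adjusted p = 3.9e-05) and -0.36 for Hspa5 (adjusted p = 5.5e-05), and between -0.18 and -0.33 for Calr, Pdia3, Pdia4 and Pdia6. The call for Calr (adjusted p = 0.040) was lost without any saline or 5 mg/kg pool or without 50 mg/kg pool 1 (0.053 to 0.14), and that for Pdia6 (0.0088) without 5 mg/kg pool 2 (0.052) or saline pools 1 (0.056) or 2 (0.057). At 50 mg/kg 19.3% of all genes and 5 of the 10 genes passed. Hsp90b1 differed by -0.52 (SE 0.05, adjusted p = 1.8e-08), Pdia3 by -0.37 (adjusted p = 6.9e-06), Canx by -0.31 (adjusted p = 0.00016), Pdia6 by -0.24 and Pdia4 by -0.23, while Hspa5 differed by -0.11 (adjusted p = 0.088). The call for Pdia6 at 50 mg/kg (adjusted p = 0.010) was lost without 50 mg/kg pool 2 (0.075) or saline pools 1 (0.068) or 2 (0.052). The differences of Xbp1, Ddit3 and Manf did not pass at either dose.

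The share of cells in the cycling clusters moved differently in the lineages beside these results. The median over pools was 21.5%, 23.0% and 33.9% of CD4+ cells and 53.8%, 50.9% and 44.5% of CD8+ cells at saline, 5 mg/kg and 50 mg/kg. Outside the cycling clusters the differences between lineages passed for 3 of the 10 genes in the saline pools, where Hspa5 was lower in CD8+ cells by -0.17 and Pdia4 differed by -0.02, for 2 genes at 5 mg/kg (Hspa5 -0.24 and Hsp90b1 -0.33) and for 1 gene at 50 mg/kg (Hsp90b1 -0.23). Fewer of all genes passed there too, 22.2%, 0.726% and 5.98%. The differences of Canx, Hspa5, Pdia4 and Pdia6 at 50 mg/kg then turned to 0.03, 0.07, 0.16 and 0.08. In cells of 4000 to 8000 UMIs 5 genes passed in the saline pools, 0 at 5 mg/kg and 3 at 50 mg/kg (Hsp90b1 -0.34, Pdia3 -0.32 and Pdia4 -0.42), beside 23.6%, 0.651% and 7.97% of all genes. With no pool block 2 genes passed at 5 mg/kg, Canx and Pdia3, and 3 at 50 mg/kg, beside 1.99% and 16.9% of all genes.

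Within 9 clusters of the deposited annotation that held more than 180 cells in every treatment, TEa cells counted, 42 of 89 tests of the 10 genes at 50 mg/kg passed, 11 higher and 31 lower. Without TMM 4 were higher and 50 lower. The share of all genes passing was 54.8% in CD4+ C0, 20.3% in C1, 22.5% in C2, 17.7% in C3 and 53.9% in C5, and 58.4% in CD8+ C0, 26.9% in C1, 54.8% in C2 and 58.9% in C3. Hspa5 was lower in all 9 clusters, by -0.77, -0.67, -0.87, -0.74 and -0.68 in CD4+ C0, C1, C2, C3 and C5 and by -1.28, -0.47, -0.65 and -0.61 in CD8+ C0, C1, C2 and C3. The study describes CD4+ C0 and C1 as effector cells, C1 with less activation RNA, C2 as precursor-like and C3 as cycling effectors, and in CD8+ cells C0 as activated, C1 and C2 as quiescent and C2 and C3 as cycling. Hspa5 thus passed in clusters of each of these kinds, and it also did by DESeq2 and without TMM. Canx was lower in 8 of 9 clusters, from -0.45 in CD4+ C3 to -1.26 in CD8+ C0, and in CD4+ C2 its change of -0.39 did not pass. The call for Canx in CD8+ C1 (-0.46) was lost without saline pool 2 (adjusted p = 0.11) or 50 mg/kg pool 3 (0.051).

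The remaining genes passed in fewer clusters. Pdia3 and Pdia6 were lower in 4 each, Calr in 3, all of them CD4+ (C1 -0.45, C2 -0.35 and C3 -0.41), Hsp90b1 in 2, both CD8+ (C0 -0.60 and C2 -0.26), and Pdia4 in 1 (CD8+ C0, -0.30). Pdia6 had its largest fall in CD8+ C0 (-0.71). For Pdia3 and Pdia6 the calls in CD8+ C0, and that of Pdia3 in CD8+ C2, held on leaving out any pool. Pdia3 in CD4+ C5 (-0.21) was lost without any saline pool, 5 mg/kg pools 1 or 2 or 50 mg/kg pools 2 or 3 (adjusted p = 0.051 to 0.19), and in CD8+ C3 (-0.22) without saline pool 2 (0.12) or 50 mg/kg pool 3 (-0.09, 0.26). Pdia6 was lost in CD4+ C2 (-0.49) without saline pools 2 or 3 or 50 mg/kg pool 2 (0.084 to 0.15) or pool 3 (-0.22, 0.46), in CD4+ C3 (-0.40) without saline pool 2 or 50 mg/kg pools 2 or 3 (0.068 to 0.15), and in CD8+ C2 (-0.27) without saline pools 1 or 2 or 50 mg/kg pools 2 or 3 (0.073 to 0.22). Without saline pool 2 the calls for Calr in CD4+ C1 (adjusted p = 0.082) and Hsp90b1 in CD8+ C2 (0.051) were lost. Calr in CD4+ C2 was lost without any saline pool or 50 mg/kg pools 2 or 3 (0.057 to 0.28), and Pdia4 in CD8+ C0 without saline pools 1 or 3 or 50 mg/kg pools 2 or 3 (0.073 to 0.15). Manf was higher in 5 clusters (0.51 to 0.75), Xbp1 in 3 (CD4+ C5 0.66, CD8+ C2 0.44 and CD8+ C3 0.53) and Ddit3 in 3 of the 8 in which it was tested (CD4+ C0 1.27, CD8+ C0 1.72 and CD8+ C2 0.95). Without TMM Xbp1 passed in 0 clusters and Ddit3 in 2, and Manf was higher in 2 and lower in 1, with a change of -0.01 in CD8+ C0. Leaving out each pool in turn gave 34 to 47 calls of the same 89 tests, 34 without saline pool 2. At 5 mg/kg Hspa5 was lower in 4 of the 9 clusters, Canx in 3 and Pdia3 in 2, and Manf was higher in 5, Hsp90b1 in 2 and Calr, Xbp1 and Ddit3 in 1 each. The share of all genes passing at that dose was 16.2% in CD4+ C0, 4.09% in C1, 5.32% in C2, 6.01% in C3 and 30.3% in C5, and 16.5% in CD8+ C0, 5.48% in C1, 37.5% in C2 and 36.1% in C3.

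**Figure D3:**
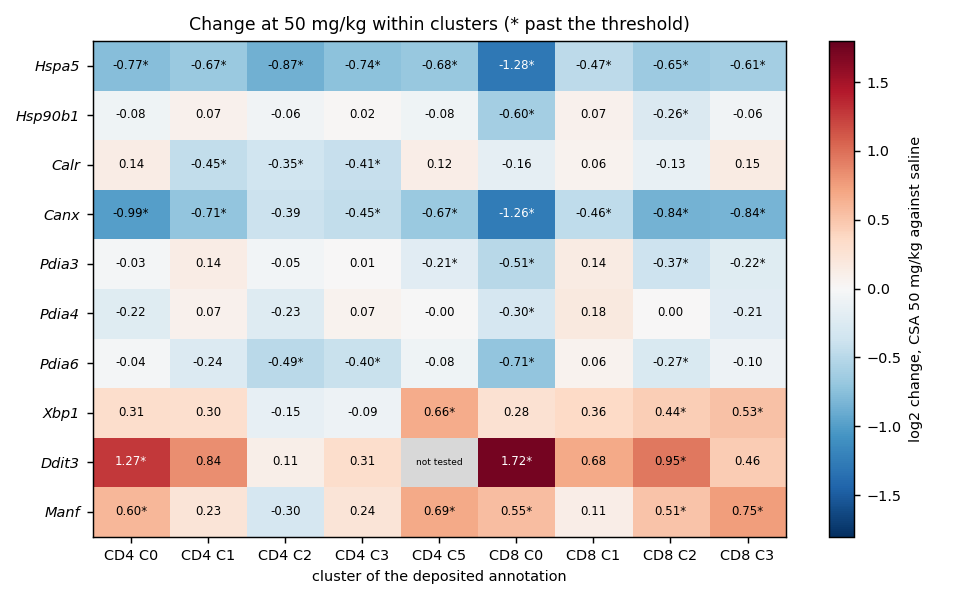
Log2 change at CSA 50 mg/kg against saline (colour and number, TMM scaling) of each gene within 9 clusters of CD4+ and CD8+ T cells; an asterisk marks a change past the threshold of 0.05, and grey a gene too rare to be tested. Hspa5 is lower in all 9 clusters and Canx in 8, with their largest falls in CD8+ C0; the rises of Xbp1, and of Manf in CD8+ C0 among others, do not hold without TMM.

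In saline-treated mice the 10 genes differed widely between clusters. Clustering had used these counts, so the levels, in CPM of all UMIs, are a description with no test. In CD4+ cells Hspa5 was highest in C7 (1747 ± 157 CPM, SD, n = 3), followed by C6 (1447 ± 200.1), C5 (1177 ± 67.2) and C4, the cluster with follicular helper RNA (1145 ± 95.9), and lowest in C1 (346 ± 42.5). Of the 10 neighbouring pairs in the order of 11 clusters, 8 overlapped in their pools. In CD8+ cells C4, the cycling effectors, held 1595 ± 129 CPM and C8 1547 ± 226, and C1 (337 ± 52.4) and C7 (297 ± 30.6) held least. Highest and lowest cluster differed 5.05-fold in CD4+ and 5.37-fold in CD8+ cells.

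CD8+ C4 was also the highest of the 9 CD8+ clusters for Hsp90b1 (1880.3 CPM), Calr (597), Canx (787), Pdia3 (1430.5), Pdia4 (312), Pdia6 (442) and Manf (265), and CD8+ C7 the lowest for each of these. The span was widest for Hsp90b1 (7.37-fold) and narrowest for Manf (1.71-fold). In CD4+ cells the cycling effectors C6 led for Hsp90b1, Calr, Canx, Pdia3 and Pdia4, C7 for Hspa5, Pdia6 and Xbp1 and C3 for Manf (292 ± 55.3 CPM). Ddit3 stood in the opposite order, with its lowest mean in the cycling effectors of both lineages, CD4+ C6 (5.69 ± 3.19 CPM) and CD8+ C4 (5.84 ± 2.14), and its highest in CD4+ C10 (33.6 ± 29.3) and CD8+ C5 (14.3 ± 4.22). CD4+ C10 rested on 6 UMIs of Ddit3 and overlapped with C6, and all neighbouring pairs overlapped for Ddit3 in both lineages.

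**Figure D4:**
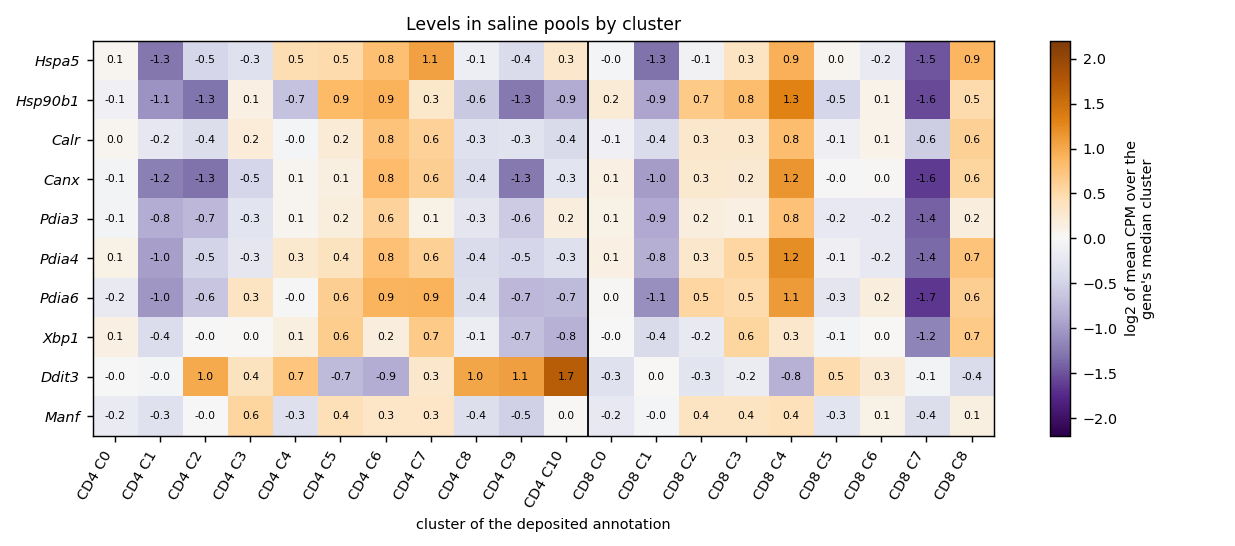
Mean level of each gene over the saline pools in 11 CD4+ and 9 CD8+ clusters, as the log2 of CPM over the gene's own median cluster (colour and number). The chaperones and disulfide isomerases are highest in CD4+ C6 or C7 and in CD8+ C4 and lowest in CD8+ C7, while Ddit3 has its lowest level in CD4+ C6 and CD8+ C4.

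Over these 20 clusters the genes with a pattern most like that of Hspa5, by Pearson's r of log2 CPM among 6528 genes, were Prrc2a (0.943), Hyou1 (0.943), an ER chaperone that works with BiP, Syncrip (0.942), Vcp (0.939), the segregase of ER-associated degradation, and Atp2a2 (0.937), the calcium pump that fills the ER. For Xbp1 they were Sept7 (0.907), Ddb1 (0.881), Nudt3 (0.872), Ints8 (0.861) and Ccdc50 (0.855). For Ddit3 they were Slfn5 (0.824), Oasl2 (0.808), Rtp4 (0.802), Isg20 (0.798) and Ifi35 (0.796), genes known as interferon-induced. Among the 10 genes, r with Hspa5 ran from 0.511 (Manf) to 0.931 (Pdia4), apart from Ddit3 at -0.207, and r of Ddit3 with the others was between -0.207 and -0.691. The clusters share pools, captures and depth, and Ddit3 rests on few UMIs in most of them. CD4+ C10, which had the highest mean of Ddit3, is the cluster labelled as Isg15-high interferon-response cells. Its part in the likeness of Ddit3 to interferon-induced genes was not tested.

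Each list of other genes of the same pathway held genes that rose and genes that fell at 50 mg/kg, apart from the targets of ATF4 and CHOP, of which none fell. Of all genes tested at that dose, 70.5% passed in CD4+ cells (3669 higher, 3785 lower). In CD8+ cells 74.0% passed (4021 higher, 4003 lower). The counts of each list have to be read beside these shares. Of 11 genes for the stress sensors and their regulators, 2 were higher and 8 lower in each lineage, with a median log2 change of -0.61 in CD4+ and -0.50 in CD8+ cells. Without TMM 0 were higher and 10 lower. By the rule for naming list genes Atf6 changed by -0.72 in CD4+ and -0.88 in CD8+ cells, and Ppp1r15b, which returns eIF2α to its active state, by -0.70 and -1.01. Ern1, Eif2ak3 and Atf4 were chosen after their values were seen. Ern1, the gene of the sensor IRE1, was at 24.1, 24.3 and 30.1 CPM in CD4+ saline pools, 17.0, 20.6 and 16.9 at 5 mg/kg and 6.03, 5.01 and 5.22 at 50 mg/kg, a log2 change of -2.28 (SE 0.15, adjusted p = 1.3e-11) at the higher dose. In CD8+ cells Ern1 went from 16.9 ± 0.617 to 10.2 ± 0.699 and 5.17 ± 0.296 CPM (-1.71, SE 0.12, adjusted p = 4.1e-10). No pools of Ern1 overlapped between doses. Eif2ak3 was lower by -0.92 and -0.98 in CD4+ and CD8+ cells, and Atf4 was higher by 0.46 and 0.58, which without TMM became 0.03 and 0.05 and did not pass.

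Of the 7 targets of ATF4 and CHOP that could be tested, 1 was higher and 0 lower in CD4+ cells, and 3 were higher and 0 lower in CD8+ cells. Without TMM 1 was higher and 3 were lower in each lineage. Atf5, chosen after its values were seen, was higher by 1.06 in CD4+ and 0.89 in CD8+ cells from 2.89 ± 1.04 and 3.51 ± 0.251 CPM at saline.

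The counts of the lists that follow, with genes on both sides, stand beside 70.5% of all genes passing in CD4+ and 74.0% in CD8+ cells. Among the ER folding co-factors and disulfide enzymes 9 were higher and 6 lower of 21 tested in CD4+ cells and 8 higher and 6 lower of 21 in CD8+ cells. Hyou1 fell from 59.9 ± 7.52 to 34.9 ± 4.31 CPM in CD4+ cells (-0.80, adjusted p = 4.5e-07) and from 68.0 ± 6.93 to 31.7 ± 5.76 in CD8+ cells (-1.12, adjusted p = 6.3e-08), while Fkbp2, a prolyl isomerase, rose in CD4+ cells (0.76) and Cnpy2 in CD8+ cells (0.84). Of the genes for glycosylation and the calnexin cycle 6 were higher and 5 lower of 14 in CD4+ cells and 4 higher and 7 lower of 14 in CD8+ cells. Uggt1, the sensor that returns misfolded glycoproteins to calnexin, fell by 1.22 and 1.31 on the log2 scale in CD4+ and CD8+ cells, and malectin (Mlec) by 0.85 and 1.18. In ER-associated degradation 8 were higher and 5 lower of 17 in CD4+ cells and 9 higher and 6 lower of 18 in CD8+ cells, with Sel1l lower by -0.98 and -1.11 and Selenok higher by 1.01 and 1.06.

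Translocation into the ER had 9 genes higher and 4 lower of 17 in CD4+ cells and 8 higher and 7 lower of 17 in CD8+ cells. The most changed genes of this list encode small subunits of the Sec61 channel. Sec61b was at 267 ± 8.91, 532 ± 18.5 and 639 ± 3.73 CPM at saline, 5 and 50 mg/kg in CD4+ cells (1.26 at the higher dose) and at 253 ± 7.87, 656 ± 7.33 and 771 ± 17.8 in CD8+ cells (1.60), and Sec61g rose by 1.25 and 1.56. For comparison outside the ER, cytosolic and mitochondrial chaperones had 10 genes higher and 6 lower of 20 in CD4+ cells and 9 higher and 8 lower of 20 in CD8+ cells. Dnajb1 was higher by 0.73 and 0.68, Hspa9 lower by -0.65 in CD4+ cells and Hspe1 higher by 0.71 in CD8+ cells. Without TMM every one of these 5 lists had more genes lower than higher in both lineages, from 6 higher and 10 lower (translocation in CD4+ cells) to 1 higher and 17 lower (cytosolic and mitochondrial chaperones in CD8+ cells), and Dnajb1 in CD8+ cells no longer passed (0.15).

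**Figure D5:**
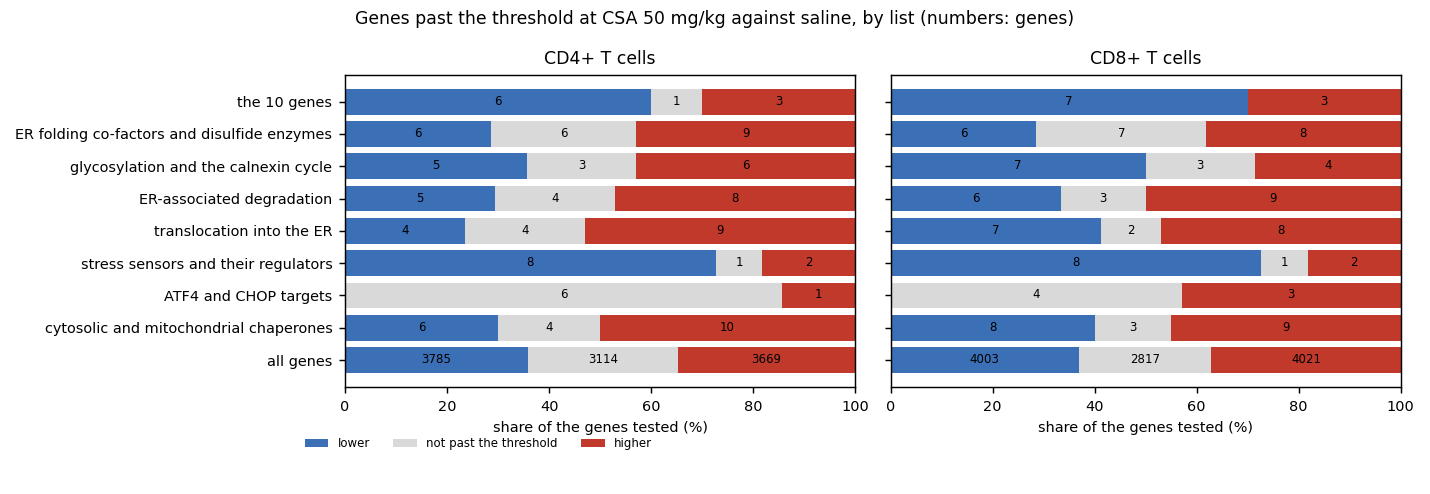
Share of the tested genes of each list that was lower (blue), higher (red) or not past the threshold of 0.05 (grey) at CSA 50 mg/kg against saline, with TMM scaling, in CD4+ and CD8+ T cells. Numbers count genes. Of all genes tested, 70.5% passed in CD4+ cells (3669 higher, 3785 lower) and 74.0% in CD8+ cells (4021 higher, 4003 lower). The stress sensors are mostly lower (8 of 11 in each lineage), the targets of ATF4 and CHOP hold 1 and 3 higher genes and 0 lower, and the remaining lists are mixed, a balance that shifts to lower in each of those lists without TMM.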

How the data were processed

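Splenic CD4+ and CD8+ T cells from 9 pools of 2 mice were profiled by 5′ droplet RNA sequencing. The authors aligned and counted the reads with Cell Ranger on mm10 and clustered the cells with Seurat 3.0.0, per the submitters' processing notes, and deposited a table of UMI counts per gene and cell with a table of cells that gives pool, lineage and cluster. The deposited fraction of mitochondrial UMIs per cell was used only to describe depth and quality. The study's own filters on cells and doublets were kept, and no cell was removed here apart from TEa cells. CD8+ clusters carry the study's numbers, matched by their cell numbers.

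UMI counts were summed per pool and lineage, and within clusters for pools with at least 10 cells. They were tested with edgeR 4.0.16 in R 4.3.3 (quasi-likelihood test, filterByExpr, TMM), all 3 treatments in 1 fit, with Benjamini-Hochberg adjustment over all genes tested and a threshold of 0.05. The comparison of lineages used the pool as a block, because both lineages of a pool come from the same mice. Steps were tested on simulated data. Alternatives were DESeq2 1.42.0, library size scaling, no filter on low counts, TEa cells included, cells outside the cycling clusters, cells of 4000 to 8000 UMIs, leaving out each pool, fitting only the groups compared, and the hashtag number, which labels pools within a capture and does not pair mice across captures, as a block.

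Genes named beyond the 10 were, per pathway list and lineage, the 2 with the largest change at 50 mg/kg that passed the test, averaged 20 CPM or more and had 50 mg/kg pools all on the same side of the saline pools, and for Hspa5, Xbp1 and Ddit3 the 5 genes most alike over clusters. The genes, lists and alternatives were chosen with earlier results of these data known. Intervals on counts of a single sum are exact Poisson intervals at 95% and cover counting error only.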

Additional observations from a re-analysis of the deposited data

Results flagged for a closer look

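These results stand here because the change with CSA differed between CD8+ and CD4+ T cells by a test of the difference itself, edgeR's interaction of lineage and dose with the pool as a block. Each value is the log2 change in CD8+ cells minus that in CD4+ cells. At 5 mg/kg the difference was -0.36 for Hspa5, -0.39 for Hsp90b1, -0.18 for Calr, -0.40 for Canx, -0.31 for Pdia3, -0.33 for Pdia4 and -0.31 for Pdia6. At 50 mg/kg it was -0.52 for Hsp90b1, -0.31 for Canx, -0.37 for Pdia3, -0.23 for Pdia4 and -0.24 for Pdia6. Over all cells with TMM, Hsp90b1 was lower in CD8+ cells at both doses and did not pass in CD4+ cells. In CD4+ cells it was also lower past the threshold at both doses without TMM, and in cells of 4000 to 8000 UMIs. Hsp90b1 was the gene whose difference at 50 mg/kg also passed outside the cycling clusters (-0.23) and in cells of 4000 to 8000 UMIs (-0.34). The share of cycling cells and the depth per cell moved differently in the lineages, and their part in these differences was not tested further than by those subsets.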

How the results depend on the processing

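Of the 9 counts of the 10 genes past the threshold and the count within clusters, 11 values moved by more than 1.5 times under an alternative other than leaving out a pool. Outside the cycling clusters the count fell to 5 in CD8+ cells at 5 mg/kg, to 2 in CD8+ cells at 50 against 5 mg/kg, to 3 between lineages in the saline pools, and to 2 and 1 for the change at 5 and 50 mg/kg. The share of all genes passing fell there too, to 29.6% at 50 against 5 mg/kg and 22.2% between lineages in the saline pools. For the changes it fell to 0.726% and 5.98%. In cells of 4000 to 8000 UMIs the count was 5 between lineages in the saline pools and 0 and 3 for the change at 5 and 50 mg/kg. With no replicate block (pool) it was 2 and 3, and by DESeq2 3 at 50 mg/kg. The share of all genes is not given here by DESeq2, nor for CD8+ cells at 5 mg/kg outside the cycling clusters. Those falls can therefore not be told from a loss of calls over all genes. Leaving out each pool in turn gave 5 to 9 in CD4+ cells at 50 mg/kg, 5 without saline pool 2. The hashtag number as a replicate block gave 6, 9 and 4 in CD4+ cells and 10, 10 and 4 in CD8+ cells, as without it, and changed no call of the 10 genes. Including TEa cells does not apply to CD8+ cells.

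Directions turned as follows. With library size scaling Xbp1 became -0.054, -0.018, -0.21 and -0.057 (CD4+ 5 and 50 mg/kg, CD8+ 5 and 50 mg/kg), Hsp90b1 -0.30 and -0.37 in CD4+ cells, Manf -0.047 in CD8+ cells at 5 mg/kg and -0.013 in CD8+ C0. Outside the cycling clusters Calr became 0.046 (CD4+, 5 mg/kg) and 0.023 (CD8+, 50 mg/kg), Pdia6 0.038 (CD4+, 5 mg/kg) and Hsp90b1 -0.014 (CD4+, 50 mg/kg), the difference between lineages in saline pools -0.17 for Hspa5 and -0.020 for Pdia4, and that at 50 mg/kg 0.026 for Canx, 0.075 for Hspa5, 0.16 for Pdia4 and 0.083 for Pdia6. In cells of 4000 to 8000 UMIs Hsp90b1 became -0.49 and -0.44 in CD4+ cells, the difference between lineages -0.0031 for Manf in saline pools and 0.063 for Calr at 5 mg/kg. Leaving out a pool gave -0.059 to 0.019 for Calr and -0.074 to 0.011 for Pdia6 in CD4+ cells at 5 mg/kg, and -0.059 to 0.19 for Hsp90b1 in CD4+ cells at 50 mg/kg. The cause was not tested.

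Of the values for single genes under alternatives other than leaving out a pool, 770 kept direction and side of the threshold, 81 fell below it, 7 rose past it and 22 turned. On leaving out a pool, 1205 kept both, 86 fell below the threshold, 1 rose past it and 4 turned. Over whole lineages Hspa5, Canx and Manf against saline lost no call on leaving out a pool. Ddit3 rests on 48 to 152 UMIs a pool, which limits its precision.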

Other observations

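The 280 TEa cells, which share 1 transgenic receptor, were left out of the comparisons. They were too few per pool to test, so their counts were summed per treatment (123, 130 and 27 cells at saline, 5 mg/kg and 50 mg/kg) and are given in CPM of all UMIs with exact 95% Poisson intervals. Hspa5 was at 1103 (1016 to 1196), 679 (622 to 740.4) and 348 (276 to 433) CPM, beside 989, 600.4 and 377 CPM in polyclonal CD4+ T cells. Canx was at 343 (295 to 397), 256 (222 to 295) and 170 (121 to 232) CPM, beside 361, 207 and 141. Hsp90b1 was at 909 (829.6 to 994), 787 (725 to 852) and 574.5 (481 to 681) CPM, beside 792, 642 and 608. Manf was at 249 (208 to 295), 260 (225 to 299) and 231 (173 to 302) CPM, beside 209, 216 and 242. Ddit3 had 6, 5 and 3 UMIs in these sums.

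Outside the 10 genes the element with CCAAT and CCACG 9 bases apart was present in the promoters of 5 other genes of the pathway lists, Dnajc3, Creld2, Ero1b, Syvn1 and Derl3. At 50 mg/kg Dnajc3, a BiP co-chaperone, was higher in CD4+ (0.27) and CD8+ cells (0.26). Ero1b (Ero1lb in the count table), an oxidase of the disulfide isomerases, was lower (-0.67 and -0.68). Syvn1, the ubiquitin ligase of ER-associated degradation, was lower in CD8+ cells (-0.56) and at -0.23 (adjusted p = 0.076) in CD4+ cells. Creld2 did not pass in either lineage (0.20 and -0.02), nor did Derl3 in CD8+ cells (0.75, adjusted p = 0.074). Relative to the bulk of genes, those that share the element thus moved in both directions, and only Dnajc3 passed as higher. Its change without TMM is not given here. The median of all genes at 50 mg/kg moved down without TMM by more than the rise of Dnajc3.

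Genes known to respond to tissue dissociation were summed as a sign of handling. They were at 829.8 to 931 CPM of all UMIs in CD4+ saline pools, 734 to 792 at 5 mg/kg and 776 to 822 at 50 mg/kg, and at 458 to 513, 415 to 447 and 449 to 506 CPM in CD8+ cells. The sum held genes that moved in both directions. In CD4+ cells the means at saline and 50 mg/kg were 55.6 and 11.9 CPM for Fosb, 70.0 and 30.5 for Jun and 185 and 243 for Ier2. Handling and treatment cannot be told apart in these values.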
